A study of Rattus norvegicus with 164 samples.

Results

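Potassium channel genes were followed across RNA sequencing libraries of prelimbic cortex, which lies in the medial frontal lobe, from outbred heterogeneous stock rats. The genes were chosen by their symbol: all autosomal genes named Kcn with a letter code and a number, except 2 that are not reported here, whose mean level over the 130 libraries was at least 1. Levels are log2 of counts per 1000000 (CPM) plus 1 throughout. The rule kept 75 genes of the 38354 in the table. It was applied to 93 symbols, of which 2 lie on the X chromosome and 14 fell short of the mean level. The mean thus served to choose the genes: Kcnj13 was just inside, at a mean of 1.06, and Kcnn4 just outside, at 0.61. Of the 75 genes 12 encode auxiliary subunits, which form no pore themselves, and the others encode pore-forming or silent pore subunits.

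All 130 libraries carry the same labels of tissue and stock, without a stated treatment, sex or age. They are divided by the kind of animal identifier alone, with 68 decimal numbers (the decimal series), 51 codes beginning with E21DCD (the E21DCD series) and 11 such codes that the labels describe as reassigned. Another 34 of the 164 labelled samples, 33 without a matching genotype and 1 removed, were not analysed here. Nothing in the labels says what else differs between the series.

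Several libraries were set apart by measured levels of marker genes that are no channels, and 11 of these went against the label of cortex. In these 11 libraries, all of the decimal series, the striatal dopamine receptor gene Drd2 was above 6, at 7.25 to 7.90, and they are called striatal-like. In 7 others Gad2, a GABA-synthesising enzyme of interneurons, was below 4.7, at 2.37 to 4.27, and these are called low-Gad2. They are decimal replicate 15 and 6 of the E21DCD series. The remaining 112 libraries, 56 decimal, 45 E21DCD and 11 reassigned, are called cortical. The mean of 10 glutamatergic neuron markers was 6.44 to 7.05 in the cortical, 5.48 to 7.15 in the low-Gad2 and 1.26 to 4.36 in the striatal-like libraries. The mean of 13 striatal projection neuron markers was 4.32 to 5.96, 4.01 to 4.73 and 8.53 to 9.05 in the same order. For 12 interneuron markers the mean was 5.43 to 6.065 in cortical, 5.29 to 6.09 in low-Gad2 and 4.87 to 5.665 in striatal-like libraries. In low-Gad2 libraries 0 of these 12 lay wholly below or above the cortical range. Summed counts per library were 15.1 to 55.95, in units of 1000000. Because the striatal-like and low-Gad2 libraries were selected on measured values, their differences from the cortical libraries are descriptions and were not tested. In such tissue samples fewer cells of a type and less RNA per cell cannot be told apart.

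Potassium channels let potassium leave the cell and so set the resting potential of neurons, end the action potential and space successive spikes. The voltage-gated Kv families open on depolarisation, the inward rectifiers (Kir) hold the membrane near rest and include channels opened by G proteins, the K2P channels carry leak current, and the SK, BK and sodium-activated channels respond to calcium or sodium inside the cell. In the forebrain, striatal projection neurons are known for strong inward rectification and a slowly inactivating A-type current at rest, cortical pyramidal cells for G-protein-gated inhibition through Kir channels, and astrocytes for clearing potassium through their own Kir channels.

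Promoter sequences are shown for 6 genes whose levels lead the comparisons below and whose start in the deposited table equals that of the RefSeq transcript. Kcnj2 is the inward rectifier that was higher and Kcnj6 the one that was lower in striatal-like libraries by the largest margin. Kcnj9 and Kcnj10 are neighbours that differed in opposite directions there, and Kcna3 and Kcnf1 led the differences of the low-Gad2 libraries. Each is the 250 bases before the transcript start, 5′ to 3′ on the strand of the gene, from RefSeq (build GRCr8). Capitals mark GGGCGG, the core of the GC box, or its reverse complement CCGCCC.
Kcnj2, chr10:96559975-96560224, plus strand: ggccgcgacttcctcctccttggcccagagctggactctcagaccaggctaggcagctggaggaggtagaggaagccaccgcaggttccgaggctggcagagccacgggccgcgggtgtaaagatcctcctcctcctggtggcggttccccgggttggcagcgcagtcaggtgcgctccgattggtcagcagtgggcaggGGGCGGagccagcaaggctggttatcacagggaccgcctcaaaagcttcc
Kcnj6, chr11:47778349-47778598, minus strand: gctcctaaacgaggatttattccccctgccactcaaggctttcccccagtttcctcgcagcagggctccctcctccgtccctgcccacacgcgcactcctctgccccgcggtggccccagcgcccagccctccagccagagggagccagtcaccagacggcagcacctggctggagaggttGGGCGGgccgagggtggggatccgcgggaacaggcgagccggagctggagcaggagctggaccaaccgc
Kcnj9, chr13:87320294-87320543, minus strand: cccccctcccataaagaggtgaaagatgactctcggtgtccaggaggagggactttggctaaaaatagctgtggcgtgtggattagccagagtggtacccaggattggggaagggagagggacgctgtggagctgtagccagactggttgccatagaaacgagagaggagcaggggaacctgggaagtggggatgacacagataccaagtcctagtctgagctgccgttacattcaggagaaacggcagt
Kcnj10, chr13:87334260-87334509, plus strand: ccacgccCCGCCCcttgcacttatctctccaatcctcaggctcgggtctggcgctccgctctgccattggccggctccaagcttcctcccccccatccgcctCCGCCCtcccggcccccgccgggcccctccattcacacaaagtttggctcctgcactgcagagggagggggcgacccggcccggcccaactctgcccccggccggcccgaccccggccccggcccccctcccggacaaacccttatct
Kcna3, chr2:197320074-197320323, plus strand: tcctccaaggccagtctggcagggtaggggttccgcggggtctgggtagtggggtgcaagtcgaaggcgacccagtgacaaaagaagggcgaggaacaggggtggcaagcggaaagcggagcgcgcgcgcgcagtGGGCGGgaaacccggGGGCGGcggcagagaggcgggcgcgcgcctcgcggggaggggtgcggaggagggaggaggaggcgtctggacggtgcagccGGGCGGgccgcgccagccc
Kcnf1, chr6:45693707-45693956, minus strand: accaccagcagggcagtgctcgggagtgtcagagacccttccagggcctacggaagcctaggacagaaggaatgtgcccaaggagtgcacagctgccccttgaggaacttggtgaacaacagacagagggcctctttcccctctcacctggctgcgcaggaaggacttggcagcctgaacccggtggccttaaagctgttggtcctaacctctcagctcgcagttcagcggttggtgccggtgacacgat

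The GC box was found 3 times before Kcna3, 2 times before Kcnj10, once before Kcnj2 and Kcnj6, and in neither the Kcnj9 nor the Kcnf1 window. G and C made up 73.6% of the bases before Kcna3, 72.4% before Kcnj10 and 54.8% before Kcnj9. Of 75 channel genes 50 had a promoter entry, and 25 of these held a GC box on either strand, against 54.7% of 12398 promoters of tested genes. TATAAA was found in 1 of the 50 (2.0%), that of Kcnj13, against 6.91% of all, and the cyclic AMP response element TGACGTCA in none, against 2.76%. For 19 of the 50 the RefSeq start equals that of the deposited table, so the other windows may lie beside the start used for the levels.

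In striatal-like libraries some channel genes were far above and others far below their cortical levels. Kcna5, a Kv1 subunit, Kcnj2, an inward rectifier, and Kcnip2, a calcium-binding auxiliary subunit of Kv4 channels, were the 3 genes with the largest positive difference in mean, while Kcnj6 and Kcnj3, subunits of G-protein-gated inward rectifiers, and Kcnc4, a Kv3 subunit, had the largest negative ones. In all, 12 of 75 genes (16.0%) lay above the range of the 112 cortical libraries in every striatal-like library, and 18 (24.0%) below it. Among all 15150 genes tested these shares were 5.15% and 7.1%. The median difference was -0.34 over the 75 channel genes and 0.04 over all genes. Lower means were found for 50 of the 75, against 6873 of all 15150 genes. With the low-Gad2 libraries counted as cortical the channel genes below the range numbered 7, against 2.86% of all genes.

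**Figure D1:**
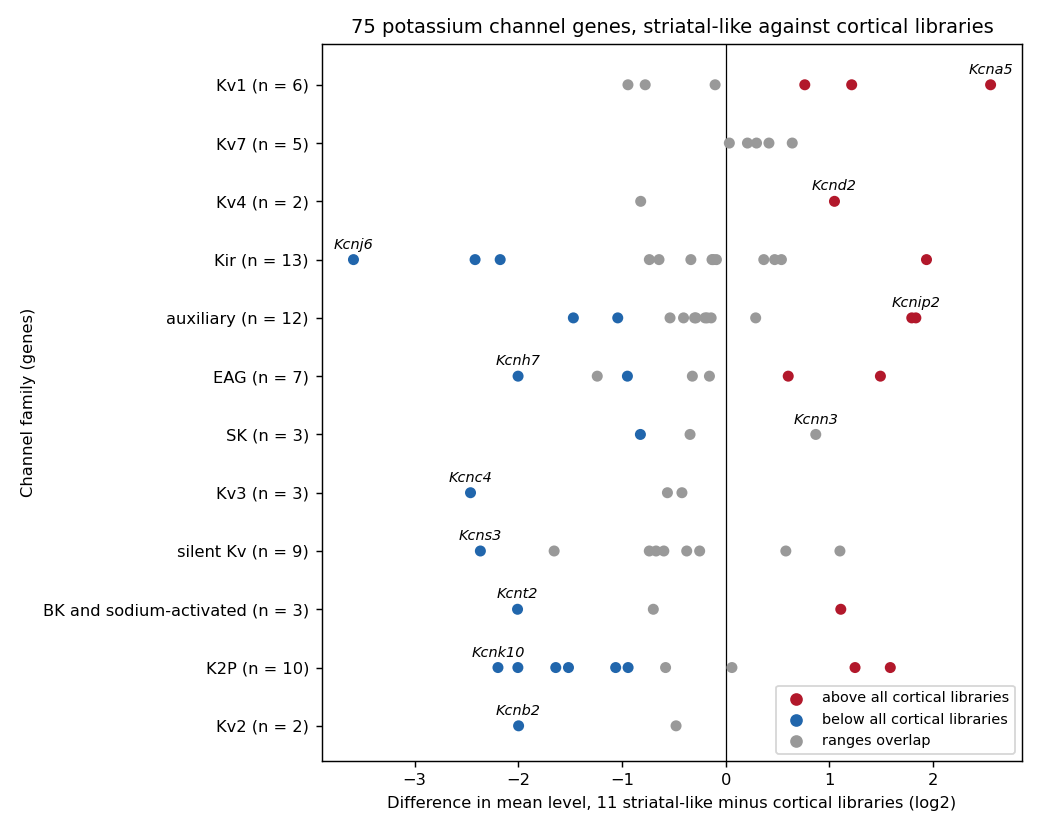
Difference in mean level (log2, x axis) between 11 striatal-like and 112 cortical libraries for each of 75 channel genes, by channel family (y axis, with the number of genes); colour shows whether the striatal-like values lay above, below or within the range of the cortical libraries, and a leading gene is named in all families but 1. The points run from Kcnj6 at -3.59 to Kcna5 at 2.56, and Kv1 and Kv7 are the families with positive medians and more than 2 genes.

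Kv1 channels sit in axons and dendrites and carry delayed rectifier and slowly inactivating A-type currents. Kcna5 ranged from 5.16 to 5.85 in the 11 striatal-like libraries, with a median of 5.69, and from 1.81 to 3.50 in the 112 cortical libraries, with a median of 3.06. Every striatal-like library was thus more than 1 log2 unit above every cortical one, and the means differed by 2.56, which is 5.88 times on the scale of CPM plus 1. Kcna4, the rapidly inactivating member, was at 5.36 to 6.20 against 3.68 to 4.99, and Kcna1, a subunit of axonal channels, at 7.67 to 7.93 against 6.59 to 7.66. The other members lay on the opposite side: Kcna3, best known in lymphocytes and microglia but also made by neurons, had a mean difference of -0.94, and Kcna2, the partner of Kcna1 in axons, one of -0.78, both with overlapping ranges. Kcnab1, which encodes a beta subunit that adds inactivation to Kv1 channels, was at 8.00 to 8.59 against 5.84 to 6.79, so it lay with Kcna4 and Kcna5, while Kcnab2, the gene of another beta subunit, differed by -0.30 (named after its values were seen).

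Kv4 channels carry the A-type current of dendrites, which delays firing. Kcnd2 ranged from 7.09 to 7.71 in striatal-like and from 5.92 to 6.67 in cortical libraries, and Kcnd3 from 5.43 to 6.01 against 5.73 to 6.88. The pore genes of the family thus differed in opposite directions, by 1.05 and -0.82. Of their calcium-binding auxiliary subunits, Kcnip2 was at 7.68 to 8.21 against 5.75 to 6.57, with no overlap and a difference of 1.83. Kcnip1 and Kcnip4 differed by -0.54 and -0.29, with overlapping ranges.

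The inward rectifiers showed both extremes. Kcnj2, a constitutively open rectifier, had a lowest value of 5.65, a median of 5.95 and a highest value of 6.45 in striatal-like libraries, and 3.28, 4.04 and 4.60 in cortical libraries. Its neighbour on chromosome 10, with starts 70.9 kb apart, Kcnj16, which encodes a glial subunit, differed by -0.64, and the related rectifier genes Kcnj4, Kcnj12 and Kcnj14 by 0.54, -0.13 and 0.47 (named after their values were seen). Kcnj6 had a lowest value of 2.06, a median of 2.87 and a highest value of 4.67 in striatal-like libraries, and 6.07, 6.94 and 7.36 in cortical ones, a mean difference of -3.59 or 12.0 times on the scale of CPM plus 1. Kcnj3 was at 3.46 to 5.36 against 6.24 to 7.16, and Kcnj9 at 3.85 to 4.39 against 5.40 to 6.67. All 3 genes of the G-protein-gated rectifiers of forebrain neurons were therefore below every cortical library. Kcnj5, a further member of that group that is best known in heart and adrenal gland, differed by -0.09, at 1.82 to 2.37 against 1.79 to 2.94.

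The striatal-like libraries also differed in Slc17a7, the vesicular glutamate transporter gene of cortical pyramidal cells, at 2.75 to 8.83. In the 6 libraries with Slc17a7 below 6, Kcnj6 was at 2.06 to 2.87, and in the other 5 at 3.44 to 4.67, with no overlap. Kcnc4 was likewise at 3.84 to 4.31 against 4.40 to 5.18. Kcna5 was at 5.48 to 5.80 against 5.16 to 5.85 and Kcns3 at 0.77 to 1.83 against 0.82 to 1.93, so these did not separate. With the 6 libraries alone as the striatal-like group, 15 channel genes lay above and 21 below the cortical range, as did 7.45% and 9.82% of all genes. The part of cortical tissue in these values was not tested.

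**Figure D2:**
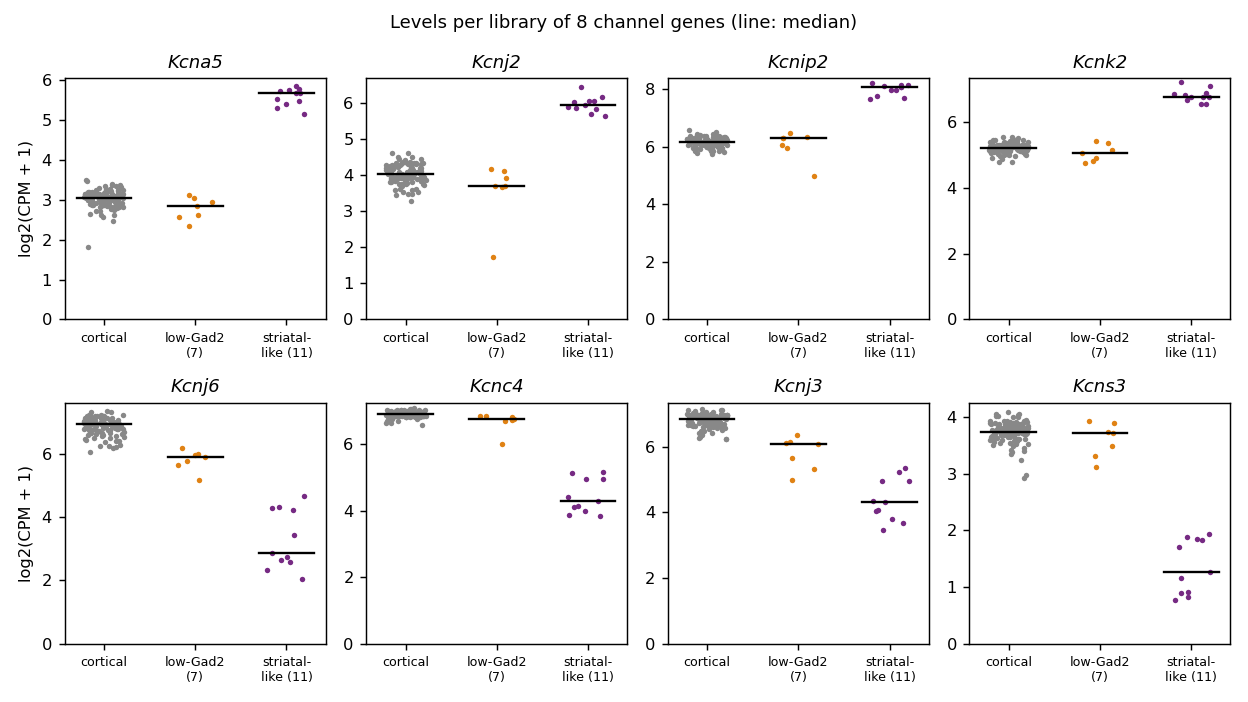
Level of 8 channel genes (log2 of CPM plus 1, y axis from 0) in each of 112 cortical, 7 low-Gad2 and 11 striatal-like libraries (x axis; points spread sideways, line at the median). Kcna5 in the upper row lies at 5.16 or above in all striatal-like and at 3.50 or below in all cortical libraries; Kcnj6 in the lower row spans 2.06 to 4.67 in striatal-like libraries.

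The Kv3 channels repolarise fast-spiking cells. Kcnc4 was at 3.84 to 5.18 in striatal-like against 6.58 to 7.09 in cortical libraries, a difference of -2.46, while Kcnc1 differed by -0.56 with overlapping ranges. The silent Kv subunits give no current alone and modify Kv2 channels. Kcns3, one of them, was at 0.77 to 1.93 against 2.92 to 4.08 and Kcns1 at 0.60 to 1.90 against 1.64 to 3.77. Kcng4, another silent subunit, was higher, at 3.03 to 3.71 against 1.40 to 3.47. The Kv2 pore gene Kcnb2 was at 2.95 to 3.57 against 4.18 to 5.74.

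Leak channels of the K2P family were mostly lower. Of 10 genes 6 lay below the cortical range and 2 above it, against 7.1% and 5.15% of all genes. Kcnk10 was at 1.22 to 2.31 in striatal-like against 3.05 to 4.49 in cortical libraries, Kcnk12, whose protein gives no current when expressed alone, at 1.24 to 2.12 against 3.19 to 3.97, and the mechanosensitive Kcnk4 at 2.89 to 3.96 against 4.50 to 5.43. The acid-sensitive Kcnk9 and Kcnk3 differed by -1.52 and -1.06. Kcnk2, a mechanosensitive relative of Kcnk4 and Kcnk10, was in contrast at 6.54 to 7.20 against 4.78 to 5.56, and Kcnk13 at 3.39 to 3.84 against 1.88 to 2.85. The 3 mechanosensitive genes Kcnk2, Kcnk4 and Kcnk10 thus differed by 1.59, -1.64 and -2.20.

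The 7 EAG-type genes include the ERG channels. Among the 7, 2 lay above and 2 below the cortical range, against 5.15% and 7.1% of all genes. Kcnh4 was at 4.68 to 5.06 against 2.80 to 4.14 and Kcnh7 at 4.52 to 5.13 against 5.88 to 7.31. Of the sodium-activated channels, Kcnt1 was at 6.56 to 7.09 against 5.12 to 6.14 and Kcnt2 at 2.87 to 4.00 against 4.62 to 5.65, so the genes of this kind lay on opposite sides. The BK pore gene Kcnma1 differed by -0.70 with overlapping ranges and its neuronal beta subunit Kcnmb4 by -1.47, at 4.77 to 5.44 against 6.20 to 6.93. Kcnn3, a calcium-activated SK channel, differed by 0.87, at 3.44 to 4.17 against 2.24 to 3.58. The 5 Kv7 genes include the M channel subunits that restrain repetitive firing. All 5 had higher means, and none lay wholly outside the cortical range, against 5.15% above and 7.1% below among all genes. Other marker lists also differed in the striatal-like libraries. Of 14 oligodendrocyte and 10 meningeal fibroblast genes 0 lay wholly outside the cortical range, and of 12 interneuron genes 3 lay above and 2 below it. The list mean was 8.25 to 9.08 against 5.14 to 8.99 for oligodendrocytes, 4.04 to 4.64 against 1.06 to 1.96 for cholinergic neurons, with 3 of 3 genes above the range, and 2.14 to 3.11 against 2.59 to 4.72 for meningeal fibroblasts. Their part in the differences was not tested.

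Genes that are no potassium channels but bind or cluster them, or carry the related pacemaker current, were listed for comparison. Of 22 such partner genes 2 lay above and 4 below the cortical range in striatal-like libraries, against 5.15% and 7.1% of all genes. Their median difference was -0.20, against 0.04 over all genes. The anchoring protein gene Akap5 was highest relative to cortex, at 8.10 to 8.91 against 5.94 to 7.27, followed by Cntn2 and Dpp6, a partner of Kv4 channels, with differences of 1.17 and 0.89. Hcn4, a pacemaker channel gene, differed by -1.55, and Dpp10, the other Kv4 partner, by -1.24. As for the Kv4 pore genes, the partner genes Dpp6 and Dpp10 lay on opposite sides.

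In the low-Gad2 libraries 69 of 75 channel genes had a lower mean than in the cortical ones, as had 9715 of all 15150 genes. Kcna3 and Kcnf1, a silent Kv subunit, were the lowest relative to cortex, followed by the G-protein-gated Kcnj9, the ERG channel gene Kcnh7 and Kcnd2. Of 75 genes 9 (12.0%) lay below the range of the 112 cortical libraries in all 7 low-Gad2 libraries, against 6.26% of all genes, and 0 lay above it, against 1.59% of all genes. The median difference was -0.42 over the channel genes and -0.20 over all genes, a gap of -0.22. Without decimal replicate 15 these medians were -0.34 and -0.09. The median over all genes became -0.03 with median-of-ratios scaling, which raised the median gene by up to 0.85 in a low-Gad2 library. The channel genes then had a median of -0.25, with 6 below and 0 above the range, against 4.14% and 3.65% of all genes. The number of channel genes with a higher mean was 6 with CPM, beside 5435 of all 15150 genes. It was 17 with median-of-ratios scaling, where the number over all genes was not counted. The direction of small differences thus depends on scaling.

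Kcna3 was at 0.07, 0.22, 0.29, 0.48, 0.79, 0.89 and 1.08 in the 7 libraries, and had a lowest value of 2.25, a median of 3.42 and a highest value of 4.08 in the cortical libraries. Every low-Gad2 library was thus more than 1 log2 unit below every cortical one. Relative to the median of all genes its difference was -2.60. The microglia markers, in whose cells Kcna3 is also known, had a list mean of 4.95 to 5.44 in the low-Gad2 and 4.45 to 5.56 in the cortical libraries. Kcna2, whose start lies 72.4 kb from that of Kcna3 on chromosome 2, was at 6.09 to 6.98 against 7.05 to 8.13.

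Kcnf1 had a lowest value of 2.09, a median of 4.16 and a highest value of 5.40 in low-Gad2 libraries, and 6.07, 6.92 and 7.26 in cortical ones. In striatal-like libraries it was at 6.24 to 6.66, within the range of the cortical libraries. Kcnj9 was at 2.86 to 4.58 against 5.40 to 6.67 in cortical libraries and differed by -2.21, beside -2.17 in striatal-like libraries, a comparison with the same cortical libraries. Kcnj10, the astrocytic rectifier gene whose start lies 14.2 kb from that of Kcnj9 on chromosome 13 and read from the other strand, differed by 0.37 in striatal-like and by -0.30 in low-Gad2 libraries, the latter being -0.04 without decimal replicate 15 and -0.49 without E21DCD replicate 19. Kcnj6 and Kcnj3, the partners of Kcnj9, differed by -1.07 and -0.99 in the low-Gad2 libraries, with overlapping ranges.

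Kcnd2 was at 2.88 to 5.54 in low-Gad2 against 5.92 to 6.67 in cortical libraries, opposite in direction to the striatal-like libraries. The acid-sensitive leak channel Kcnk9 was at 2.35 to 4.03 against 4.26 to 5.47 and Kcnh7 at 2.50 to 5.67 against 5.88 to 7.31. Kcnt2 and Kcnh5 differed by -1.41 and -1.39, with overlapping ranges. The remaining genes below the range were Kcna1, Kcna2 and Kcnc1, with differences of -0.87, -1.17 and -0.83. Leaving out decimal replicate 15, in which 1 gene took 15.1% of the counts, 11 channel genes lay below the range, against 6.50% of all genes, and the difference of Kcnh7 became -1.52. Within the E21DCD series alone 16 lay below and 1 above it, against 10.6% and 5.37% of all genes.

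Kcnmb4 was the gene with the largest positive difference in low-Gad2 libraries, 0.51, at 6.78 to 7.26 against 6.20 to 6.93, and its pore partner Kcnma1 differed by -0.84. Kcng2 differed by 0.43 and Kcnk4 by 0.16. Family medians were -0.22 for the auxiliary subunits, -0.18 for the 9 silent Kv genes and -0.25 for the 3 SK genes. These were close to the median of all genes, against -0.69 for the 6 Kv1 genes and -0.91 for the 5 Kv7 genes. Of the 22 partner genes 4 lay below and 0 above the cortical range, against 6.26% and 1.59% of all genes. Their median was -0.75, against -0.20 over all genes. Hcn4 and Cntnap2, which clusters Kv1 channels beside the node of Ranvier, differed by -1.87 and -1.38. Vapa, which tethers Kv2 clusters to the endoplasmic reticulum, differed by 0.26, or by 0.53 without decimal replicate 15, and Hcn2 by 0.22. The low-Gad2 libraries had 20516 to 24328 genes above 0, against 22643 to 26540 in cortical libraries. The part of these measures in the differences was not tested, and RNA quality was not assessed.

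**Figure D3:**
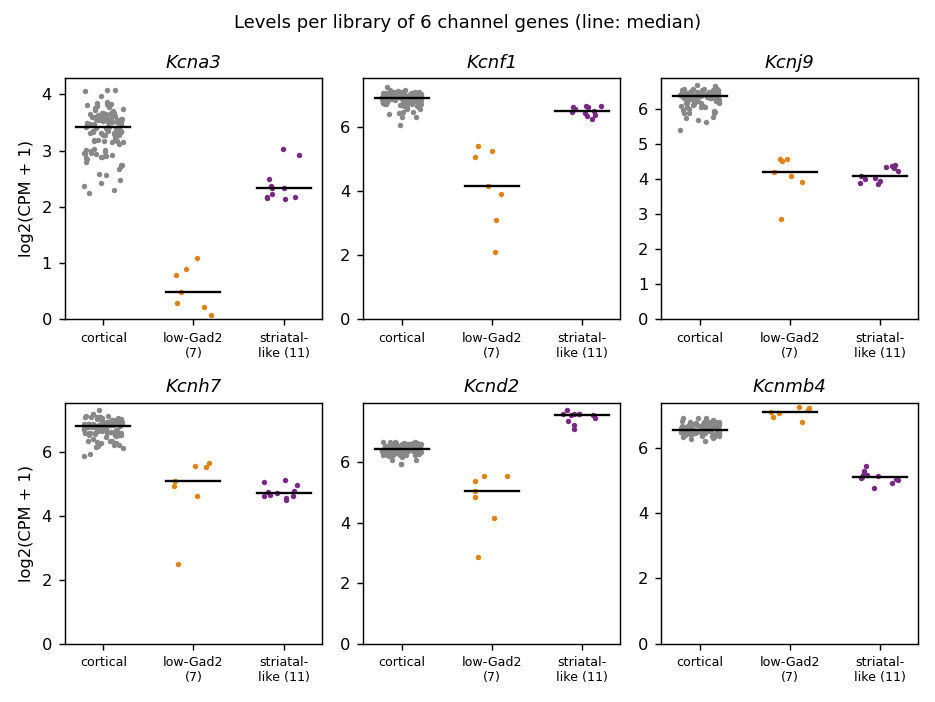
Level of 6 channel genes (log2 of CPM plus 1, y axis from 0) in each of 112 cortical, 7 low-Gad2 and 11 striatal-like libraries (x axis; points spread sideways, line at the median). Kcna3 lay at 1.08 or below in all low-Gad2 libraries and at 2.14 or above in all others, and Kcnmb4 is the gene of the 6 with the higher median in low-Gad2 libraries.

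Across genes, long genes were lower in the low-Gad2 libraries: over 15145 genes with a span in RefSeq the difference had a Spearman rho of -0.50 and a Pearson's r of -0.47 with the log2 span. Over the 75 channel genes rho was -0.20 and Pearson's r -0.04. Kcna3 and Kcnf1, the genes with the largest negative differences, span 1954 and 2679 bases. These values are across genes, which are not independent replicates.

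The kind of identifier is the only label that divides the libraries, so decimal and E21DCD libraries were compared in a limma fit of all genes. No purpose of this split is stated in the sources used here, and with 1 library per rat the p-values measure only the spread between these libraries. Of 75 channel genes 13 were higher and 18 lower in the decimal series, against 15.9% and 13.2% of all genes. The largest falls were in Kcnj6, Kcnk10, Kcnc4, Kcnj3 and Kcnb2, and the rises included Kcng4, Kcnk2, Kcna1 and Kcnd2. All 11 striatal-like libraries belong to the decimal series. Without them 4 channel genes were higher and 2 lower, against 5.89% and 4.01% of all genes.

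Kcnj6 had a lowest value of 2.06, a median of 6.77 and a highest value of 7.36 in the 68 libraries of the decimal series, and 5.67, 6.98 and 7.34 in the 51 of the E21DCD series. The difference was -0.65 ± 0.19 (SE; limma, adjusted p = 0.00582) with all libraries and -0.09 ± 0.07 (limma, adjusted p = 0.462) without the striatal-like ones. Kcnc4 went from -0.45 ± 0.12 (limma, adjusted p = 0.00389) to -0.06 ± 0.02 (limma, adjusted p = 0.119), and Kcnk2 from 0.30 ± 0.08 (limma, adjusted p = 0.00382) to 0.05 ± 0.03 (limma, adjusted p = 0.361). None of these 3 passed once the striatal-like libraries alone were left out. Kcnab1 changed sign, from 0.25 ± 0.10 (limma, adjusted p = 0.0460) to -0.05 ± 0.04 (limma, adjusted p = 0.437).

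The 6 channel genes that differed without the striatal-like libraries were named after their values were seen. Kcnj10 was higher by 0.19 ± 0.06 (SE, 57 against 51 libraries; limma, adjusted p = 0.0304), Kcnn1, an SK channel, by 0.18 ± 0.04 (limma, adjusted p = 0.000812), Kcnab3, a beta subunit of Kv1 channels, by 0.16 ± 0.04 (limma, adjusted p = 0.00629) and Kcna6 by 0.14 ± 0.03 (limma, adjusted p = 0.00212). Kcna4 was lower by 0.17, with a difference of -0.17 ± 0.05 (limma, adjusted p = 0.0180), and Kcna5 had one of -0.14 ± 0.04 (limma, adjusted p = 0.0230). These 2 Kv1 genes are among those that were higher in striatal-like libraries. In the 112 cortical libraries Kcna5 had a lowest value of 1.81, a median of 2.97 and a highest value of 3.47 in the decimal series, and 2.78, 3.11 and 3.50 in the E21DCD series, so the series overlapped.

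Without the low-Gad2 libraries as well, 10 channel genes were higher and 21 lower in the decimal series, against 19.5% and 15.3% of all genes. Kcnj10 had a lowest value of 6.90, a median of 7.27 and a highest value of 8.34 in the 56 decimal libraries, and 6.87, 7.10 and 7.43 in the 45 of the E21DCD series, with a difference of 0.23 ± 0.05 (limma, adjusted p = 5.12e-05). Kcng4 was higher by 0.25 ± 0.08 (limma, adjusted p = 0.00681). Kcnk10 differed by -0.20 ± 0.05 (limma, adjusted p = 0.000579), Kcnj6 by -0.19 ± 0.05 (limma, adjusted p = 0.00220), and Kcnc4 by -0.06 ± 0.02 (limma, adjusted p = 0.00676), so these 3 passed. The glial markers moved with the series: in these cortical libraries the list mean of oligodendrocyte markers was 5.49 to 8.99, with a median of 6.94, in the decimal and 5.14 to 7.41, with a median of 6.27, in the E21DCD series. With 6 cell type marker scores as covariates, 6 channel genes were higher and 0 lower (limma; 21 at an unadjusted p under 0.05), against 3.10% and 1.55% of all genes, and Kcnj10 differed by 0.03 ± 0.03 (limma, adjusted p = 0.502).

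Among the 22 partner genes 3 were higher and 5 lower with all libraries, and 2 and 1 without the striatal-like ones, beside the shares of all genes given above. Between the reassigned and the other E21DCD libraries no channel gene differed (limma, 0 of 75; 1 at an unadjusted p under 0.05), against 0.0% of all genes.

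**Figure D4:**
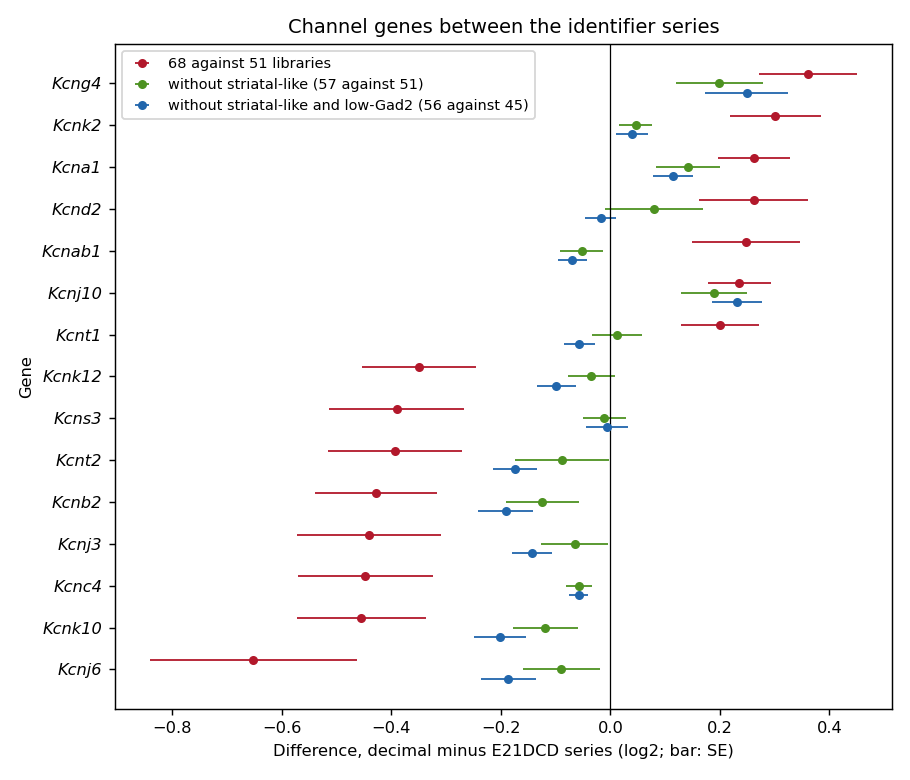
Difference between the decimal and the E21DCD series (log2, x axis; bars are SE) for 7 of the channel genes with the largest rises and the 8 with the largest falls (y axis), with all libraries, without the striatal-like and without the striatal-like and low-Gad2 libraries. Kcnj6 moves from -0.65 to -0.09 and -0.19, whereas Kcnj10 stays between 0.19 and 0.24.

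Next, the channel genes were related to the cell makeup of the 112 cortical libraries. Scores of oligodendrocyte, astrocyte, interneuron, microglia, vascular and meningeal fibroblast markers, none of which is a channel gene, were fitted together with the series, and slopes are log2 units per SD of a score. Kcnj10, the main rectifier of astrocytes, rose with the astrocyte score by 0.14 ± 0.02 (SE, n = 112; limma, adjusted p = 2.80e-08), and its slope was 0.18 within the decimal series and 0.08 within the other libraries, past the threshold in both. Kcnj16, its partner, rose by 0.27 ± 0.06 (limma, adjusted p = 0.00186), with slopes of 0.19 and 0.24, of which the former did not pass alone. In all 3 channel genes rose with the astrocyte score and 9 fell, against 5.49% and 5.72% of all genes. The falls included Kcnk9 at -0.12, Kcnh6 at -0.11 and Kcnj9 at -0.10. Kcng4, the third gene that rose, had a slope of 0.18 ± 0.06 (limma, adjusted p = 0.0272).

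With the oligodendrocyte score 5 channel genes rose and 16 fell, against 13.6% and 7.04% of all genes. Kcna6 rose by 0.10 ± 0.01 (limma, adjusted p = 1.84e-08) and Kcna1 by 0.09 ± 0.02 (limma, adjusted p = 0.000509). Kcna6 passed within each set of libraries, with slopes of 0.10 in the decimal series and 0.08 in the others. Kcnj5 rose by 0.11 and Kcnj10 by 0.07. The largest falls were in Kcng3, a silent subunit, at -0.19, Kcnj6 and Kcna3 at -0.12 each and Kcnh5 at -0.12, and within the decimal series 0 fell (limma; 9 of 75 at an unadjusted p under 0.05 in either direction), against 0.574% of all genes.

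Kcnj13, best known in the choroid plexus and its neighbouring membranes, rose with the meningeal score by 0.23 ± 0.03 (limma, adjusted p = 1.59e-08), and by 0.25 and 0.18 in the separate sets, past the threshold in both. It was the gene nearest the limit of the selection, at 0.14 to 1.82 in the cortical libraries. In all 2 channel genes rose with this score, Kcnj13 and Kcng1, and 3 fell, Kcnk9, Kcna2 and Kcnj10, against 3.83% and 1.9% of all genes.

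With the microglia score 4 channel genes rose and 32 fell, against 15.9% and 16.5% of all genes. Kcnh7 fell by 0.19, with a slope of -0.19 ± 0.03 (limma, adjusted p = 1.67e-07), and Kcnh5 had one of -0.22 ± 0.04 (limma, adjusted p = 1.03e-05), both past the threshold within each set. Kcna3, although known in microglia, had a slope of -0.24 ± 0.05 (limma, adjusted p = 7.26e-05) with this score, and of -0.20 and -0.12 in the separate sets, neither of which passed. With the vascular score 24 channel genes rose and 2 fell, against 17.4% and 11.2%, led by Kcna3 at 0.22 and Kcng3 at 0.21. These vascular slopes were 0.19 and 0.18 within the decimal series, where 0 of the 75 passed for this score (limma; 19 at an unadjusted p under 0.05), and were -0.02 and -0.00049 with the vascular score alone in the fit. With the vascular score alone in the fit, 10 channel genes rose and 21 fell, against 24.2% and 19.2% of all genes. With all 6 scores in the fit, 6 rose and 5 fell with the interneuron score, against 23.4% and 8.75%. Kcnip1 and Kcns3 rose by 0.11 ± 0.02 (limma, adjusted p = 0.000132) and 0.10 ± 0.02 (limma, adjusted p = 7.59e-05), and 0 channel genes passed within the E21DCD and reassigned libraries (limma; 4 at an unadjusted p under 0.05). With median-of-ratios scaling 3 rose and 14 fell with this score, against 13.1% and 16.0% of all genes, so under the other scaling falls outnumbered rises here and among all genes.

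Some channel genes varied between cortical libraries far more than others at their level. Kcnh5 had an SD of 0.36, 2.47 times the trend of the SD at its mean level, and ranged from 4.98 to 7.01. Kcnj16 followed at 2.01 times the trend, with a range of 2.86 to 5.12, then Kcna3 at 1.95, Kcnh7 at 1.89, Kcnj6 at 1.87, Kcns1 and Kcnj10 at 1.80 and Kcnb2 at 1.76. These include both glial rectifier genes Kcnj10 and Kcnj16. With 1 library per rat, variation between rats and between libraries cannot be told apart.

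Lastly, 15 pairs of subunits known to assemble or to bind each other were followed across the 112 cortical libraries, with levels centred within each series. The pairs share their libraries, depth and cell makeup. All 2775 pairs of channel genes had a median r of 0.07, with the middle 50% at -0.11 to 0.27 and extremes of -0.75 and 0.93. Of the 15 pairs 11 are described here, with p adjusted over all 15. Among the genes of these 11, only Kcnab1 and Kcnj16 had their highest r with a listed partner, at 0.56 and 0.36. Kcnj3 and Kcnj6 each had theirs with Kcnh7, at 0.82 and 0.83, and Kcna4 with Kcnd3, at 0.66. Kcnj3 and Kcnj6, of the G-protein-gated rectifiers, had the highest r of the 11, at 0.69, with a Spearman rho of 0.54 (both with a permutation p of 1e-05, the smallest that 100000 permutations can give; adjusted p 3e-05 and 5e-05), with r of 0.71 and 0.68 in the separate sets and 0.65 without 2 libraries.

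Kcna4 and its beta subunit gene Kcnab1 had r = 0.56 and rho = 0.38 (permutation p = 1e-05 and 6e-05), with 0.44 without 2 libraries, but r was 0.68 in the decimal series and 0.26 in the other libraries. The glial pair Kcnj10 and Kcnj16 had r = 0.36 and rho = 0.29 (permutation p = 0.00014 and 0.0022), with 0.38 and 0.39 in the sets and 0.25 without 2 libraries. The same Kv4 pore gene, Kcnd2, had r = 0.39 and rho = 0.28 with Kcnip4 (permutation p = 4e-05 and 0.0027), with 0.26 without 2 libraries, and r = -0.20 with Kcnip2 (permutation p = 0.036, adjusted p = 0.041; rho = -0.19, adjusted p = 0.050), with r of -0.11 and -0.35 in the sets and -0.27 without 2 libraries. Both Kcnip2 and Kcnd2 were above the cortical range in striatal-like libraries.

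The BK pore gene Kcnma1 and its beta subunit gene Kcnmb4 had r = -0.38 and rho = -0.32 (permutation p = 5e-05 and 0.00066), with -0.31 and -0.46 in the sets and -0.46 without 2 libraries. This pair also lay on opposite sides in the low-Gad2 libraries. Kcna2 with Kcnab2 and Kcnd3 with Kcnip1 did not pass (r = -0.10 and 0.01, permutation p = 0.27 and 0.95). The remaining 3 pairs had r of 0.32 to 0.35. Among these 3, only Kcnj3 with Kcnj9 did not pass for Spearman's rho (rho = 0.19, permutation p = 0.047, adjusted p = 0.054). Its r was 0.45 in the decimal series and 0.18 in the other libraries. In all, 9 of the 11 passed for Pearson's r with p adjusted over the 15 pairs. The share of all pairs of channel genes that would pass was not counted, and the upper quartile of their r was 0.27.

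**Figure D5:**
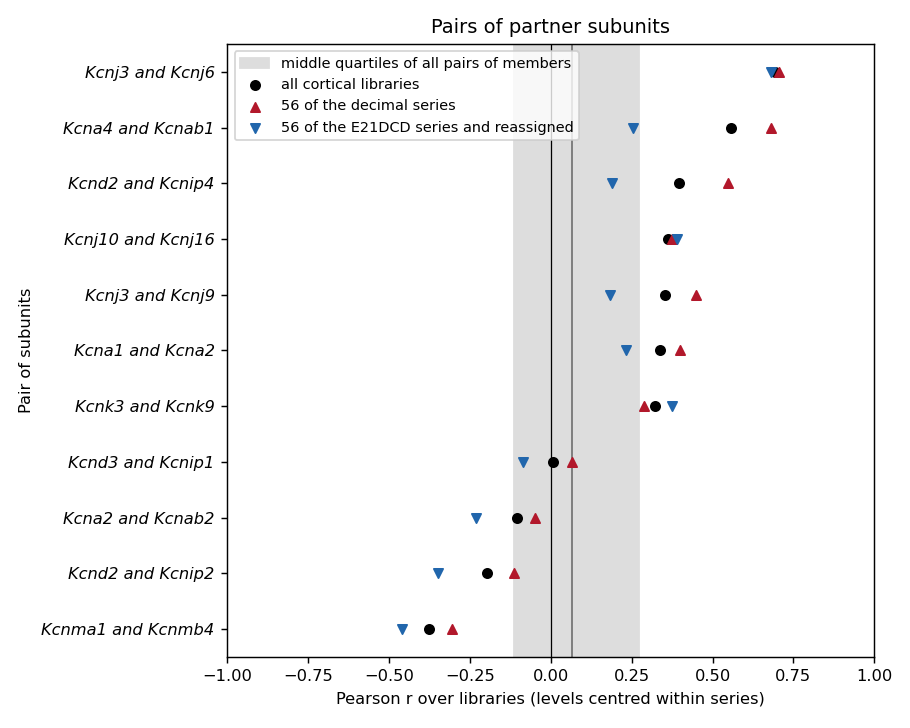
Pearson r (x axis) of 11 pairs of partner subunit genes (y axis) over 112 cortical libraries and in 2 sets of 56, with levels centred within series; the grey band holds the middle 50% of r of all 2775 pairs of channel genes and the grey line its median. Kcnj3 with Kcnj6 lies at 0.68 to 0.71 in every set and Kcnma1 with Kcnmb4 at -0.46 to -0.31.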

How the data were processed

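The authors deposited 1 table of 38354 genes by 130 libraries, each value log2 of (kallisto 0.48 estimated count + 1) as far as the submitters' processing notes and the values show. Values ran from 0 to 21.9, and of those worth 0.5 to 30 counts 61.5% were whole within 0.01. The genome build and annotation are not given in the sources used here. Values were turned back into counts, divided by the library's sum and written as log2 of CPM plus a pseudocount of 1. Summed counts were 15.1 to 55.95 in units of 1000000, and depth sets the precision of low genes.

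The 15150 genes with a mean level of at least 1 were fitted with limma 3.58.1 (trend, two-sided, R 4.3.3), with Benjamini-Hochberg adjustment over all of them and a threshold of 0.05. No count model was run. The script was tested on simulated data. Library classes were cut from measured Drd2 and Gad2. Correlations used 100000 permutations, two-sided, in Python 3.11.15 with scipy 1.17.1. Named genes are those with the largest differences or slopes in each comparison, the most variable genes, the leading gene of each family and the members of the pairs; others are marked as named after their values were seen. The channel genes, partner genes, marker lists and pairs were chosen with earlier results of these data known. Alternatives covered scaling, filter, pseudocount, covariates and libraries left out. Highest r between libraries was 0.945, so none was taken as deposited in duplicate. Some of the genes and pairs counted are not reported here by name. The 34 samples outside the table were not analysed here.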

Additional observations from a re-analysis of the deposited data

Results flagged for a closer look

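Among 14 channel genes named for the 7 low-Gad2 libraries, 4 had 1 library apart from the other 6 by more than Dixon's 95% critical value, a rule that chance meets in about 1 in 20 groups. Kcnj9 was at 2.86 in E21DCD replicate 49, against 3.90 to 4.58 in the others. Kcnh7 was at 2.50 in decimal replicate 15, against 4.64 to 5.67, and Kcnk9 at 2.35 in the same library, against 3.39 to 4.03. Kcnk4 was at 4.93 in E21DCD replicate 8, against 5.11 to 5.24.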

How the results depend on the processing

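No paired analysis was possible because the labels give no replicate numbers that groups share. For the decimal against the E21DCD series, the higher channel genes numbered 6 with 6 marker scores as covariates, 7 with no filter and 4 without striatal-like libraries, against 3.10%, 6.22% and 5.89% of all genes. The lower ones numbered 0 with the covariates, 36 without low-Gad2 and 2 without striatal-like libraries, against 1.55%, 21.4% and 4.01% of all genes. Signs turned for Kcnd2 (-0.0173 without both classes, -0.0242 so with median-of-ratios scaling), Kcnab1 (-0.0071 with the covariates, -0.0522 without striatal-like, -0.0695 without both and -0.0764 so with median-of-ratios scaling) and Kcnt1 (-0.0563 without both, -0.0632 with that scaling). With the covariates they also turned for Kcnj6 (0.0657), Kcnc4 (0.0092), Kcnj3 (0.0068), Kcnb2 (0.0634) and Kcns3 (0.0547).

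Channel genes past the threshold for a marker score depended on the libraries. Within the E21DCD and reassigned libraries there were 2 for astrocyte, 0 for interneuron, 3 for meningeal, 15 for microglia and 16 for vascular scores, against 1.04%, 0.0066%, 1.43%, 16.7% and 15.5% of all genes. Within the decimal series there were 6 for interneuron, 2 for meningeal, 18 for microglia, 2 for oligodendrocyte and 0 for vascular, against 20.1%, 2.24%, 8.10%, 4.73% and 1.48%. With each score alone there were 56 for astrocyte, 32 for interneuron, 56 for microglia and 50 for oligodendrocyte, against 55.2%, 50.1%, 59.1% and 49.9%. With low-Gad2 libraries included there were 51 for interneuron, 21 for meningeal, 55 for microglia and 41 for vascular, against 68.3%, 15.1%, 70.3% and 51.8%, and with median-of-ratios scaling 17 for interneuron, against 29.1%. Slopes turned with low-Gad2 libraries for Kcnk9 (0.0222) and Kcnj9 (0.0058) with astrocyte, Kcna1 (0.0949), Kcnj6 (0.0576) and Kcnc1 (0.0207) with interneuron and Kcnh3 (-0.0113) with microglia. They turned with a score alone for Kcnj6 with interneuron (0.0047), and for Kcna3 (-0.0217), Kcng3 (-0.00049), Kcnk9 (-0.0330) and Kcna2 (-0.0091) with vascular. Kcnj9 turned with interneuron in the E21DCD and reassigned libraries (-0.0126) and Kcnh5 with oligodendrocyte in the decimal series (0.0566).

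With low-Gad2 libraries counted as cortical, 7 channel genes lay below the range in striatal-like libraries, against 2.86% of all genes. Within the E21DCD series 1 lay above and 16 below it in low-Gad2 libraries, against 5.37% and 10.6%. Leaving out each low-Gad2 library in turn was added after seeing the data. The cause was not tested for any of these.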

Other observations

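The starts of Kcna5 and Kcna1 are 115.7 kb and those of Kcna1 and Kcna6 102.3 kb apart on chromosome 4. Their differences in striatal-like libraries were 2.56, 0.76 and -0.10 for Kcna5, Kcna1 and Kcna6, and in low-Gad2 libraries -0.24, -0.87 and -0.37.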
